A study of Mus musculus with 8 samples.

Results

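The interferon-stimulated genes measured here were 45 genes listed by symbol, from transcription factors and RNA sensors to antiviral effectors, chemokines and GTPases. A gene was measured by averaging the log2 signals of the probe sets annotated with its symbol alone, and all 45 had such probe sets, out of 23152 genes measured in the same way. Together they had 495 probe sets, between 2 and 29 per gene with a median of 10, and 42 of the 45 were above the median level of all genes. The samples were primary mammary fat pad tumors of female MMTV-PyMT mice, in which the MMTV promoter drives the polyomavirus middle T oncogene in mammary epithelium, and all 8 tumors carried this transgene. Tumors came from mice that were miR-21+/+ or lacked both copies of the microRNA gene in every cell, miR-21-/-, and were either untreated or irradiated. This gave 4 groups of 2 arrays: untreated miR-21+/+, irradiated miR-21+/+, untreated miR-21-/- and irradiated miR-21-/-. According to the labels, a dose of 8 Gy was given at a tumor volume of 1000 mm3 and the tumors then grew on to 2000 mm3. The text of the study also gives a lower dose and an earlier collection, so the interval between irradiation and collection is not settled, and no age is given per sample. The labels do not say that the 2 arrays of a group came from separate mice, and p-values then reflect no more than the scatter among these arrays, which may be technical.

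Interferons are secreted proteins that warn cells of viruses and of damaged or misplaced nucleic acid. Type I interferons act through the receptor of IFNAR1 and IFNAR2, whose kinases JAK1 and TYK2 activate a complex that contains STAT2 and IRF9 and binds the interferon-stimulated response element (ISRE) in the promoters of its target genes. Type II interferon, IFN-gamma, acts through IFNGR1 and IFNGR2 and on promoters with a gamma-activated site (GAS). In tumors the products of these target genes are known from cancer cells and from the leukocytes and stroma around them, and radiation is among the known triggers of the response.

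The arrays were otherwise alike in their median over all genes, which lay between 5.08 and 5.16 on the log2 scale. A probe set annotated to both Mir21 and its host gene Vmp1 had log2 signals between 2.34 and 3.08 in the miR-21+/+ arrays and between 1.69 and 2.02 in the miR-21-/- arrays, which did not overlap but were dim and not specific to the microRNA. Irradiated miR-21-/- replicate 1 stood apart from all other arrays: its correlations with them over all genes were between 0.898 and 0.915, against 0.955 to 0.987 for the other 21 pairs, and its 10 adipocyte markers had a median 5.21 above their mean over the 8 arrays on the log2 scale. The median of the 13 luminal epithelium markers was 1.18 below the mean there (-1.18). Values without this array are given beside the main results for the interferon-stimulated genes in the irradiated miR-21-/- group. In a fit that leaves out an array its group has 1 array, which is assumed to vary like the other groups.

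The promoters of the set show the binding elements described above. RefSeq promoter windows of 300 bases, from 250 before to 50 after a start site, were found for 36 of the 45 genes in build GRCm38.p6, in 44 windows. The motif GAAANNGAAA, the core of an ISRE, was searched on both strands and occurred in 19 of these 44 windows (43.2%), against 3.44% of all 32851 windows. The motif TTCNNNGAA, the core of a GAS, reads the same on both strands and occurred in 9 of the 44 windows (20.5%), against 8.3% of all windows. Of the 36 genes, 18 had an ISRE match, 8 of them with 2 or more, 9 had a GAS match, 5 had both and 14 had neither. In 2 windows an ISRE match overlapped a GAS match. Dhx58, Mx1, Mx2, Oas2, Parp14, Parp9, Rtp4, Usp18 and Zbp1 were not matched to a window and were not analysed in this way. The 250 bases before the start are shown 5′ to 3′ on the strand of the gene for 6 members that recur in the results, with the ISRE matches, or for Irf1 the GAS match, in capitals: Isg15, Ifit1, Oas1a and Oas3 as members of the ISG15, IFIT and OAS families, Rsad2 with the largest genotype difference in irradiated tumors, and Irf1 as a GAS promoter.
Isg15: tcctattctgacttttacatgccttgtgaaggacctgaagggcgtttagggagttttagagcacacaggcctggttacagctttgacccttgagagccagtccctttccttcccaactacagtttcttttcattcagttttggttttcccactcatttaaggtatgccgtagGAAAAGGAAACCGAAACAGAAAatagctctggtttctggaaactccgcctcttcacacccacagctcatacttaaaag
Ifit1: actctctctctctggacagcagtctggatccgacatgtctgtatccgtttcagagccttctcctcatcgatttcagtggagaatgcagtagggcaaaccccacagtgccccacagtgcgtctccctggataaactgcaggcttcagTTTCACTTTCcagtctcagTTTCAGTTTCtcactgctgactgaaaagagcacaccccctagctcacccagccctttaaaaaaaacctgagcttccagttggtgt
Oas1a: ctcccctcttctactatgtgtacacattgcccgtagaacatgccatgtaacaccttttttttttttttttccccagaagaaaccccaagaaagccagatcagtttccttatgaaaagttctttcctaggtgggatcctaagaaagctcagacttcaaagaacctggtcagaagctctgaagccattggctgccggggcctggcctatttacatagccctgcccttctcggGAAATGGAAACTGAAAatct
Oas3: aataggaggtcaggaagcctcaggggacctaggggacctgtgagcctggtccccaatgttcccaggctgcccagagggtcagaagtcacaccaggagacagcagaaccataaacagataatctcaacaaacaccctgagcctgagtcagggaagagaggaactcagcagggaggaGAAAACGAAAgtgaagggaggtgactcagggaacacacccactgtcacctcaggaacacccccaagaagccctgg
Rsad2: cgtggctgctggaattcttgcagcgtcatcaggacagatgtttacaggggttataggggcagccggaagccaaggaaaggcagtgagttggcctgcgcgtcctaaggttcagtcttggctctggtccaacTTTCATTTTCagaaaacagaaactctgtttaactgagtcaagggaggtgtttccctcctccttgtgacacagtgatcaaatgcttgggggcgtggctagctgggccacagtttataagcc
Irf1: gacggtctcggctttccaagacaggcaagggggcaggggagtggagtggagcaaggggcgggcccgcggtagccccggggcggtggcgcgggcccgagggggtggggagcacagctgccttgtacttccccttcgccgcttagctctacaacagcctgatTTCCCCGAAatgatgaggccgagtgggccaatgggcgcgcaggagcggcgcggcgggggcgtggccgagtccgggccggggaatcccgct
Isg15 (chr4:156200819-156201068, minus strand) had 3 overlapping ISRE matches from base 78 to base 57 before the start, and in Ifit1 (chr19:34640639-34640888, plus strand) 2 matches on the opposite strand lay between bases 104 and 76. In Oas1a (chr5:120907526-120907775, minus strand) 2 overlapping matches lay between bases 20 and 5, and the window also held 1 GAS match, which is left in lower case. Oas3 (chr5:120777660-120777909, minus strand) had 1 match between bases 75 and 66, and Rsad2 (chr12:26456453-26456702, minus strand) had 1 on the opposite strand between bases 120 and 111. The GAS match of Irf1 (chr11:53769764-53770013, plus strand) lay between bases 90 and 82. A match is a string in the window and not a measured binding site.

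The widest difference among these genes lay between the 2 untreated miR-21+/+ arrays. All 45 members were higher in replicate 2 than in replicate 1, with a median difference of 1.74 on the log2 scale (3.34-fold). Over all 23152 genes the median difference was -0.01, and 49.2% were higher in replicate 2. The gap ran from 0.29 for Cxcl9, a chemokine that attracts activated T cells, to 2.87 (7.29-fold) for Oas2, a synthetase of the 2-5A messenger that activates RNase L. For 35 members it was at least 2-fold, which held for 0.911% of all genes (211 genes, of which the members made up 16.6%). Among all genes higher in replicate 2, Oas2 had the largest gap and Trim30a, a TRIM-family restriction gene, came next, with log2 signals of 6.21 and 9.07 for Oas2 and of 3.49 and 6.23 for Trim30a in replicates 1 and 2. Among the 50 genes with the largest gaps in this direction were 18 members, and among the 100 were 33. The gap was also present below the level of the gene: 470 of the 495 member probe sets (94.9%) were higher in replicate 2, against 48.9% of all 233753 probe sets. With 2 arrays in the group no test of this difference is possible, and in bulk tumor RNA fewer cells of a type and less RNA per cell cannot be told apart.

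The other 3 groups did not show a gap of this size. In the irradiated miR-21+/+ pair the median over the members was 0.35, with 42 of 45 higher in replicate 2 (51.4% of all genes) and 1 of them, Cxcl9, at least 2-fold higher (1.06% of all genes). In the untreated miR-21-/- pair the median was -0.00, no member differed by 2-fold, and 22 were higher (50.2% of all genes) and 23 lower in replicate 2. The irradiated miR-21-/- pair had a median of 0.32, but its members differed in both directions, with 6 at least 2-fold higher in replicate 2 (4.7% of all genes) and 2, Cxcl9 and Gbp2, at least 2-fold lower (6.64% of all genes). By array, untreated miR-21+/+ replicate 1 was the lowest of the 8 for 29 members (14.1% of all genes), and untreated miR-21+/+ replicate 2 was the highest for 27 (9.24% of all genes). Irradiated miR-21+/+ replicate 2 was the highest for another 14 (10.8% of all genes). The 2 arrays at the extremes of the set therefore belonged to the same group. The median member was 0.82 below its mean over the 8 arrays in untreated miR-21+/+ replicate 1 (-0.82) and 0.70 above it in replicate 2. In the irradiated miR-21+/+ arrays it was 0.22 and 0.52 above, in the untreated miR-21-/- arrays 0.03 and 0.08 above, and in the irradiated miR-21-/- arrays it was at -0.40 and -0.17.

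**Figure D1:**
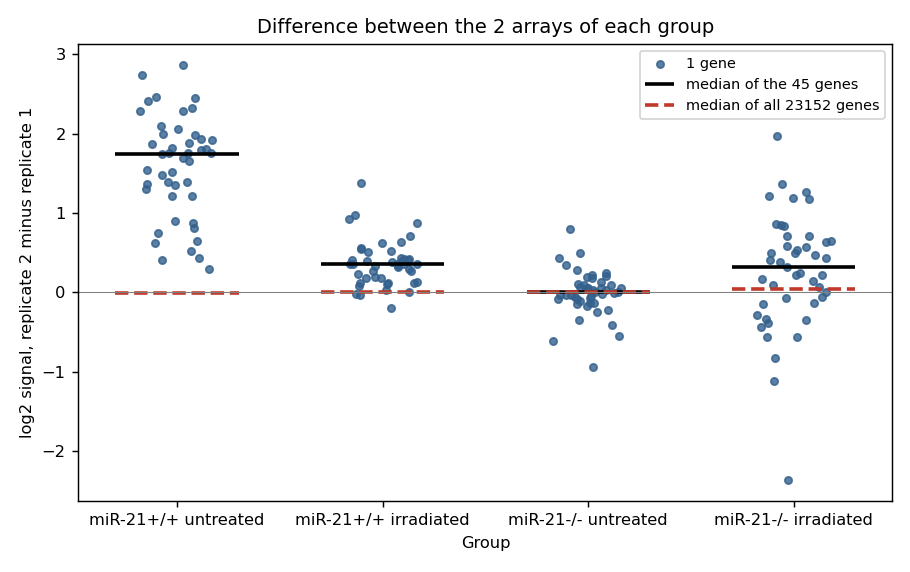
Difference in log2 signal between replicate 2 and replicate 1 of each group; each point is 1 of the 45 genes, the black line is their median and the dashed line is the median of all 23152 genes. All 45 points of the untreated miR-21+/+ group lie above 0, with a median of 1.74, against medians of 0.35, -0.00 and 0.32 in the other groups.

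**Figure D2:**
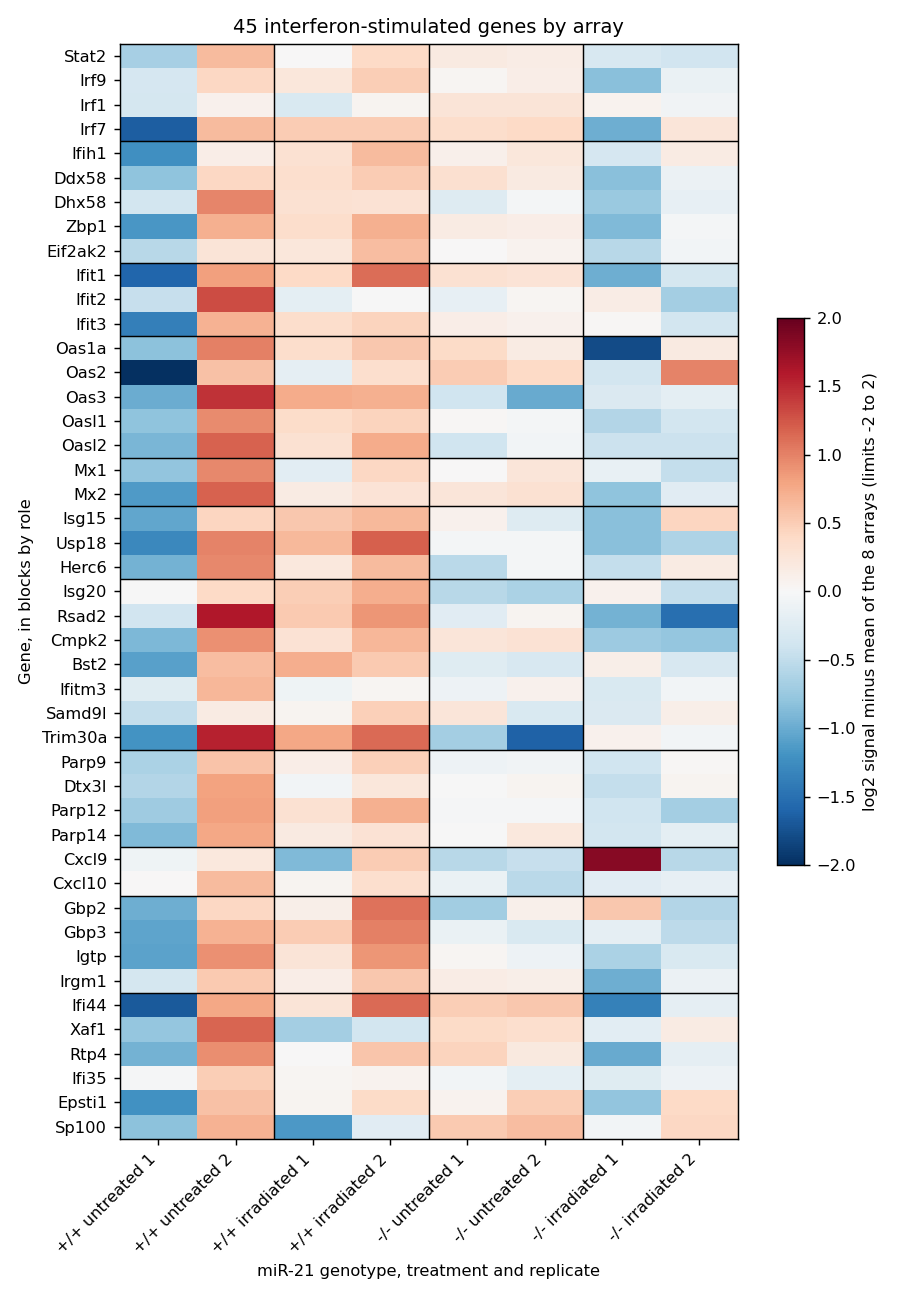
Log2 signal of the 45 genes in each of the 8 arrays minus the mean of the gene over the arrays, with genes in blocks by role and vertical lines between the groups. The first column, untreated miR-21+/+ replicate 1, is the lowest array for 29 genes, and the second, replicate 2 of the same group, is the highest for 27.

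Other gene lists moved in this pair of arrays as well. Of 43 further interferon-stimulated genes outside the set (47 were listed), 38 were higher in replicate 2 (49.2% of all genes). Their median difference was 0.93 and 19 were at least 2-fold higher (0.911% of all genes). This list, like the 45 members, was chosen with earlier results of these data known, so it is no independent check of the gap. Ifi203 and Lgals9 are named after their values were seen. Ifi203, a member of the interferon-inducible p200 family, measured 5.26 and 7.96 in replicates 1 and 2, and Lgals9, which encodes galectin-9, measured 8.54 and 10.97. Neutrophil markers ran the other way, with all 6 higher in replicate 1 and a median of -1.24. S100a9, an alarmin of neutrophils, measured 8.03 in replicate 1 and 4.85 in replicate 2, and its partner S100a8 measured 8.04 and 5.0. In the other 6 arrays S100a9 lay between 4.07 and 4.77. The median difference was 0.36 over 12 macrophage markers, 0.05 over 13 T and NK cell markers, 0.49 over 9 fibroblast markers and 0.63 over 7 endothelial markers. The part of any of these cell types in the gap was not tested. Over all genes the 2 arrays correlated at 0.982.

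**Figure D3:**
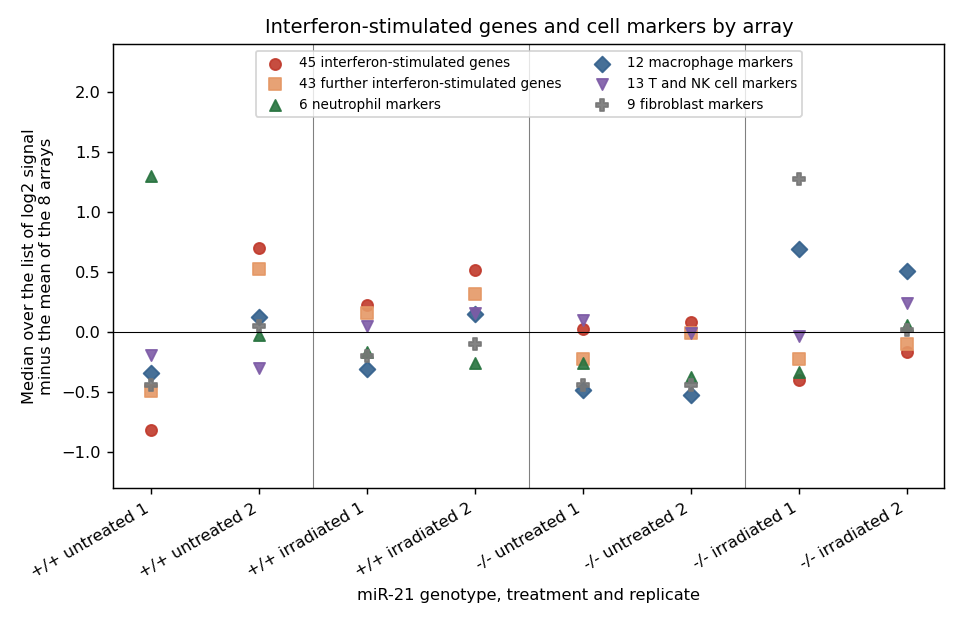
Median over each gene list of the log2 signal minus the mean of the gene over the 8 arrays, by array, for the 45 genes, for 43 further interferon-stimulated genes and for 4 cell marker lists. In untreated miR-21+/+ replicate 1 the set is at its lowest (-0.82) and the neutrophil markers are at their highest, and the further interferon-stimulated genes follow the set.

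Comparisons between groups were made with limma on all 8 arrays and all 23152 genes. A gene was counted as called if it differed 2-fold or more and its unadjusted p was below 0.05, the thresholds of the study's methods. A separate count required an adjusted p (Benjamini-Hochberg) under 0.05. In irradiated tumors 40 of 45 members had lower means in miR-21-/- than in miR-21+/+ (50.4% of all genes did), with Sp100, Xaf1, Cxcl9, Oas2 and Irf1 the exceptions and a median log2 fold change of -0.73 over the members against -0.00 over all genes. Rsad2, Usp18, Cmpk2 and Parp12 were the 4 members that passed the thresholds of the study's methods. In this direction 2.63% of all genes passed, and no member passed in the other direction. No member had an adjusted p under 0.05 (0.406% of all genes did), and 8 had an unadjusted p under 0.05, all lower (8.86% of all genes): these 4 together with Irf9, Eif2ak2, Isg20 and Irgm1. The arrays of the 2 groups did not overlap for 33 members that were lower (22.6% of all genes) and for 2 that were higher, Sp100 and Xaf1 (18.9% of all genes). The 10 members that overlapped were Irf1, Ifit2, Oas2, Mx1, Ifitm3, Samd9l, Dtx3l, Cxcl9, Gbp2 and Epsti1. Of the 495 member probe sets, 393 (79.4%) were lower, against 51.8% of all probe sets.

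The median of this comparison stayed below 0 when any array was left out, from -0.91 without irradiated miR-21-/- replicate 2 to -0.47 without irradiated miR-21-/- replicate 1, the array with adipocyte signal. Without replicate 1 of that group 40 members were still lower, but the difference moved by more than 1.5 times for several members, among them the following. It was -0.27 for Oas1a (-1.25 with all arrays), -0.27 for Irf7 (-0.87), -0.16 for Isg15 (-0.79), -0.26 for Herc6 (-0.58), -0.48 for Irf9 (-0.84), -0.46 for Irgm1 (-0.89), -0.57 for Zbp1 (-0.99), -0.87 for Ifi44 (-1.46), -0.55 for Ddx58 (-0.91) and -0.47 for Eif2ak2 (-0.72). For the 4 members called it was -2.20 for Rsad2, -1.53 for Usp18, -1.25 for Cmpk2 and -1.18 for Parp12, close to the values with all arrays. In that fit Usp18 and Cmpk2 were nevertheless no longer called, while Isg20 was. The number of members called did not hold. Without irradiated miR-21-/- replicate 1 it was 3, all lower (2.07% of all genes in that fit), and without replicate 2 it was 11 lower (5.63% of all genes) and 1 higher, Cxcl9 (6.21% of all genes). The number also changed with each of the other arrays left out. Leaving out an untreated array keeps the compared groups as they are and changes only the pooled spread. Beside this comparison, the 12 macrophage markers had a median log2 fold change of 0.69, the 9 fibroblast markers of 0.75, the 13 luminal markers of -0.90 and the 10 adipocyte markers of 2.76. With irradiated miR-21-/- replicate 1 left out these medians were 0.61, 0.29, -0.15 and -0.10, and the part of tissue content in the interferon-stimulated genes was not tested.

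**Figure D4:**
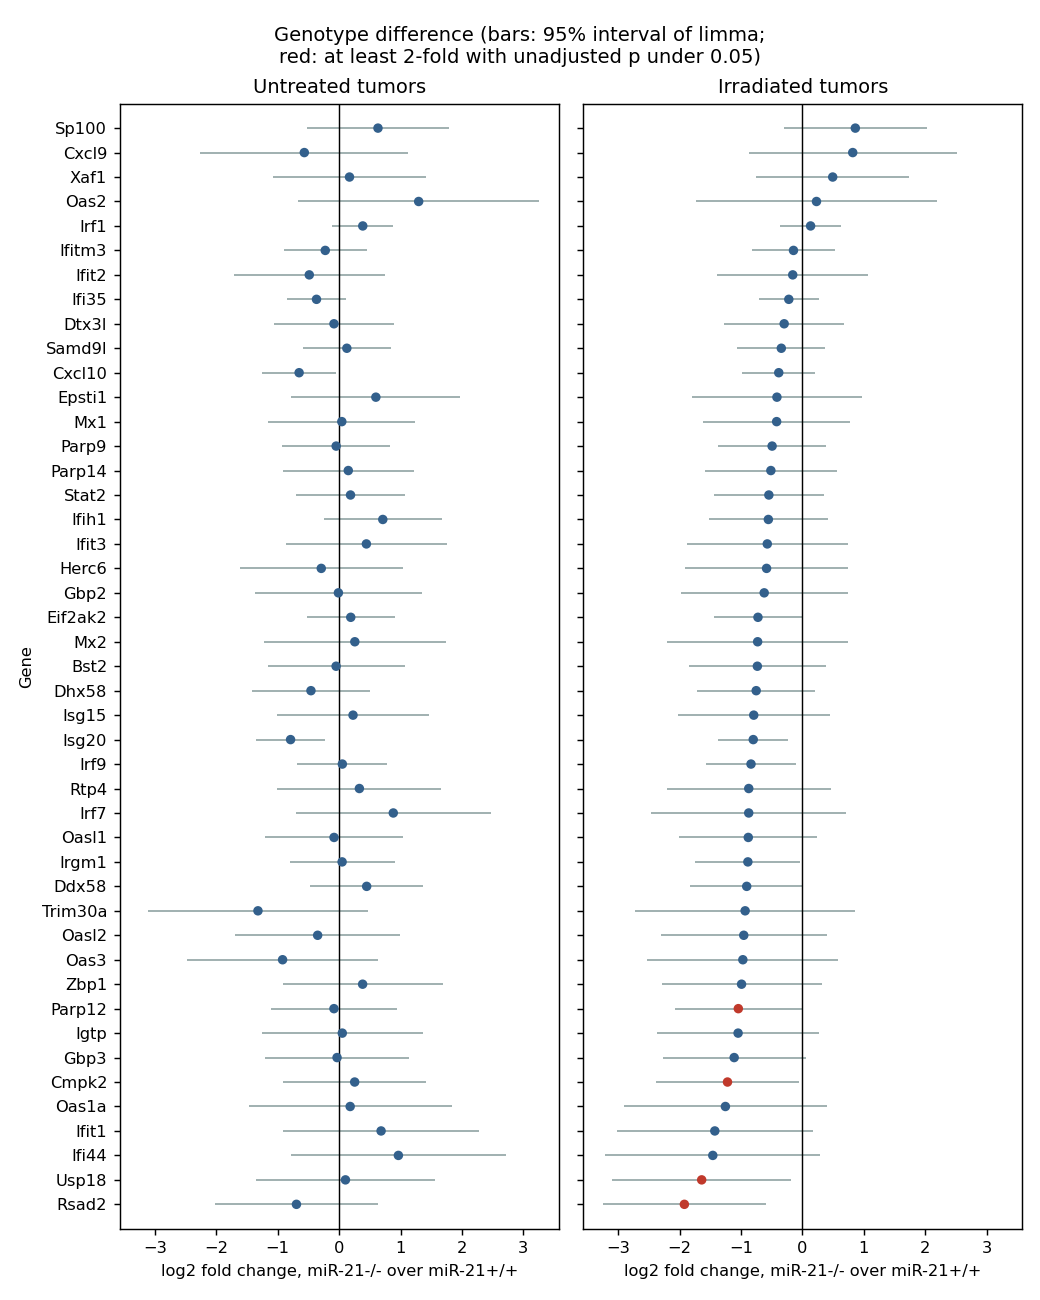
Log2 fold change of miR-21-/- over miR-21+/+ for each of the 45 genes in untreated (left) and irradiated tumors (right), with the 95% interval of limma; red points differed 2-fold or more with an unadjusted p below 0.05. In irradiated tumors 40 of 45 points lie below 0 with a median of -0.73, and in untreated tumors 26 lie above 0 with a median of 0.05.

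In untreated tumors the genotypes were not separated in this set. Of the 45 members 26 were higher and 19 lower in miR-21-/-, with a median of 0.05 (53.4% of all genes were higher), none was called at the thresholds of the study's methods (3.11% of all genes were) and none had an adjusted p under 0.05 (0.423% of all genes did). At an unadjusted p under 0.05 limma had 2 members lower, Isg20 and Cxcl10 (7.3% of all genes). Arrays did not overlap for 1 member that was higher, Irf1 (27.7% of all genes), and for 4 that were lower, Isg20, Cxcl9, Cxcl10 and Ifi35 (24.4% of all genes). The direction depended on which untreated miR-21+/+ array was the reference. Against replicate 1 alone 41 members were higher in miR-21-/- with a median of 0.80, and against replicate 2 alone 43 were lower with a median of -0.68. Without replicate 1 the fit called 8 members, all lower (1.87% of all genes in that fit), and without replicate 2 it called 16, all higher (1.17% of all genes).

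Radiation in miR-21+/+ tumors gave a positive difference for 36 of 45 members (50.2% of all genes), with a median of 0.41 against 0.00 over all genes. Arrays did not overlap for 3 members that were higher, Ifih1, Isg15 and Isg20 (22.4% of all genes), and for none that was lower. Ifih1, the cytosolic RNA sensor MDA5, was the only member called at the thresholds of the study's methods (1.16% of all genes were called higher), and none had an adjusted p under 0.05 (0.212% of all genes did). This direction, too, rested on the reference array. Against untreated replicate 1 alone 44 of 45 members were higher in the irradiated tumors, with a median of 1.23, and against untreated replicate 2 alone 36 were lower, with a median of -0.39. The fit called 26 members, all higher, without untreated replicate 2 (1.4% of all genes in that fit) and 3, all lower, without untreated replicate 1 (0.838% of all genes), and no member without either irradiated miR-21+/+ array or either untreated miR-21-/- array. The exchange of the reference was examined after the values had been seen.

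**Figure D5:**
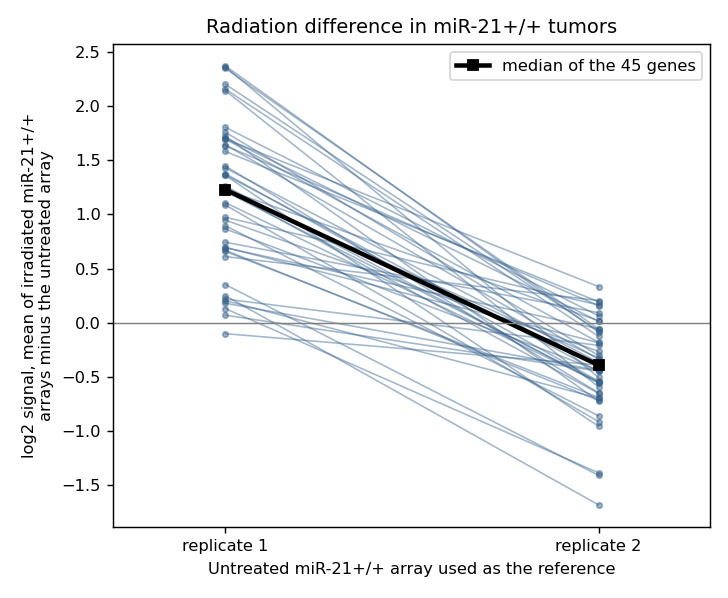
Mean log2 signal of the 2 irradiated miR-21+/+ arrays minus that of untreated miR-21+/+ replicate 1 alone (left) or replicate 2 alone (right), with a line for each of the 45 genes and the median in black. The median passes from 1.23 to -0.39 with the reference, and 44 genes are above 0 on the left against 9 on the right.

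In miR-21-/- tumors the difference with radiation was negative for 37 of 45 members (54.9% of all genes), with a median of -0.34 against -0.04 over all genes. The groups did not overlap for 24 members that were lower (23.8% of all genes) and for 3 that were higher, Oas3, Isg20 and Trim30a (16.4% of all genes). No member was called by limma at the thresholds of the study's methods (3.04% of all genes were) or at an adjusted p under 0.05 (0.013% were), none had an unadjusted p under 0.05 (6.45% of all genes did with lower and 4.55% with higher values), and the smallest p was that of Cmpk2. Without irradiated miR-21-/- replicate 1 the median was -0.20 with no member called, and without replicate 2 it was -0.50 with 4 called lower (4.88% of all genes in that fit) and Cxcl9 called higher (6.73%). Without either untreated miR-21+/+ array 3 members were called lower (1.22% of all genes) and Trim30a higher (1.33%). Beside this comparison the median was 1.03 over the macrophage, 1.08 over the fibroblast, 3.09 over the adipocyte and -0.73 over the luminal markers. Leaving out irradiated miR-21-/- replicate 1 gave medians of 0.91, 0.42, 0.12 and -0.01 in the same order.

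The interaction, the radiation difference in miR-21-/- minus that in miR-21+/+, was negative for 37 of 45 members (52.6% of all genes) with a median of -0.80, against -0.03 over all genes. Ddx58, the RNA sensor RIG-I, was the only member called (2.25% of all genes were called lower), and no member had an adjusted p under 0.05 (0.00432% of all genes did). This value uses the untreated miR-21+/+ pair as well: without its replicate 1 the median was 0.01 with 4 members called, all higher (1.5% of all genes in that fit), and without its replicate 2 it was -1.49 with 31 called, all lower (2.35% of all genes). Without irradiated miR-21-/- replicate 2 it was -0.82, with 11 called lower (6.12% of all genes) and Cxcl9 called higher (7.19%), and no member was called without any of the other 5 arrays. Averaged over treatments, the genotype difference was negative for 37 members (47.1% of all genes) with a median of -0.30. Rsad2 was the only member called (1.47% of all genes were called lower), and no member had an adjusted p under 0.05 (2.34% of all genes did) while Isg20 came closest. The fit called 6 members lower without untreated miR-21+/+ replicate 1 (1.46% of all genes in that fit). Without its replicate 2 it called 2 higher, Oas2 and Sp100 (0.479% of all genes), and Rsad2 was no longer called. Without irradiated miR-21-/- replicate 2 it called 2 lower, Oas1a and Rsad2 (2.26% of all genes). Averaged over genotypes, the radiation difference was positive for 23 members (47.5% of all genes) and negative for 22, with a median of 0.00 and none called (1.14% of all genes were). At an unadjusted p under 0.05 limma had 1 member, Isg20, which was higher (4.57% of all genes). Without untreated miR-21+/+ replicate 1 the fit called 2 members lower (0.393% of all genes in that fit), without its replicate 2 it called 3 higher (0.622%), and without irradiated miR-21-/- replicate 2 it called 1 higher, Cxcl9 (2.85%).

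Among the transcription factors, Irf7, the amplifier of type I interferon production, had the widest range. It measured 6.75 and 9.03 in the untreated and 8.91 and 8.91 in the irradiated miR-21+/+ arrays, and 8.75 and 8.80 in the untreated and 7.43 and 8.64 in the irradiated miR-21-/- arrays. Thus 6 of the arrays lay between 8.64 and 9.03, with untreated miR-21+/+ replicate 1 and irradiated miR-21-/- replicate 1 well below them. The log2 fold change of Irf7 between untreated genotypes was 0.88 ± 0.68 (SE, adjusted p = 0.651), and it was -0.26 without untreated miR-21+/+ replicate 1. Irf9, the DNA-binding subunit of the complex on the ISRE, measured 8.06 and 8.33 in irradiated miR-21+/+ and 7.0 and 7.71 in irradiated miR-21-/- tumors, a log2 fold change of -0.84 ± 0.32 (SE, adjusted p = 0.308). Stat2, its partner, had -0.55 ± 0.38 in that comparison. Irf1, the factor with the GAS promoter shown above and a target of IFN-gamma, differed in pattern from the other 3. It was the only transcription factor of the set with a positive difference between irradiated genotypes (0.13 ± 0.21), and its 8 values lay between 6.51 and 7.11 with the highest in the untreated miR-21-/- arrays.

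The 5 sensors recognise viral nucleic acid in the cytosol, and all 5 were lower in irradiated miR-21-/- than in irradiated miR-21+/+ tumors, between -0.99 for Zbp1 and -0.55 for Ifih1. Ifih1 measured 7.35 and 8.71 in untreated and 8.87 and 9.21 in irradiated miR-21+/+ tumors, and 8.67 and 8.80 in untreated and 8.24 and 8.73 in irradiated miR-21-/- tumors. The 2 irradiated miR-21+/+ arrays were the highest of the 8. Its radiation difference in miR-21+/+ tumors was 1.02 ± 0.41 (SE, 2.02-fold, adjusted p = 0.534), and between 0.33 without untreated replicate 1 and 1.70 without untreated replicate 2. Ddx58 measured 7.37 and 8.58 in untreated and 8.51 and 8.69 in irradiated miR-21+/+ tumors, and 8.49 and 8.36 in untreated and 7.34 and 8.05 in irradiated miR-21-/- tumors. Both irradiated miR-21-/- arrays were below both untreated ones, while in miR-21+/+ tumors the groups overlapped. The interaction of Ddx58 was -1.35 ± 0.56 (SE, adjusted p = 0.604), and it was called in 2 of the 8 fits that left out an array. Eif2ak2, the kinase PKR that halts translation on double-stranded RNA, had the lowest p of the family between irradiated genotypes, with a log2 fold change of -0.72 ± 0.31 (SE, adjusted p = 0.357).

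Of the 3 IFIT genes, Ifit1 encodes a protein that binds foreign RNA lacking the caps of host mRNA. Ifit1 measured 7.04 and 9.44 in untreated and 9.03 and 9.74 in irradiated miR-21+/+ tumors, and 8.94 and 8.91 in untreated and 7.65 and 8.27 in irradiated miR-21-/- tumors. The 2 irradiated miR-21-/- arrays lay below 5 of the other 6, and only untreated miR-21+/+ replicate 1 was lower still. Its interaction was -2.11 ± 0.97 (SE, adjusted p = 0.639) and its radiation difference in miR-21+/+ tumors was 1.15 ± 0.68 (SE, adjusted p = 0.718). Ifit2 followed another pattern, with 5.44 and 7.20 in untreated and 5.70 and 5.89 in irradiated miR-21+/+ tumors and 5.73, 5.93, 6.05 and 5.22 in the untreated and then the irradiated miR-21-/- tumors. Only untreated miR-21+/+ replicate 2 exceeded 6.05, and the radiation difference in miR-21+/+ tumors was -0.53 ± 0.53 (SE, adjusted p = 0.894). Ifit3 had only 2 probe sets and a close copy in the mouse genome, so its level is uncertain.

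The OAS enzymes make the 2-5A messenger in response to double-stranded RNA, and the Oasl proteins are relatives of them. Oas2 measured 6.21 and 9.07 in untreated and 8.31 and 8.83 in irradiated miR-21+/+ tumors, and 8.99 and 8.88 in untreated and 8.12 and 9.48 in irradiated miR-21-/- tumors. A single array, untreated miR-21+/+ replicate 1, was more than 1 log2 unit below all others, and the untreated genotype difference of 1.29 ± 0.84 (SE, adjusted p = 0.576) became -0.14 without it. Oas3 measured 4.82 and 7.27 in untreated and 6.56 and 6.53 in irradiated miR-21+/+ tumors, and 5.43 and 4.81 in untreated and 5.53 and 5.62 in irradiated miR-21-/- tumors. Here untreated miR-21+/+ replicate 1 was close to the 4 miR-21-/- arrays rather than far below them. The untreated genotype difference was -0.92 ± 0.67 (SE, adjusted p = 0.626), and 0.30 without replicate 2. Oas1a measured 6.07 and 7.89, then 7.23 and 7.43 in miR-21+/+ tumors, and 7.27 and 7.05, then 5.10 and 7.06 in miR-21-/- tumors. Irradiated miR-21-/- replicate 1 was the lowest array, and the radiation difference in miR-21-/- tumors was -1.08 ± 0.71 (SE, adjusted p = 0.595), from -0.10 without that array to -2.06 without replicate 2. Between irradiated genotypes 4 of the 5 family members were lower, with Oasl1 at -0.88, Oasl2 at -0.95, Oas3 at -0.97 and Oas1a at -1.25, and Oas2 at 0.23. Oas1a was at -0.27 and Oas2 at 0.91 without irradiated miR-21-/- replicate 1. Mx1 and Mx2, GTPases that trap viral capsids, had -0.42 and -0.73. Close paralogs exist for Oas1a, Mx1 and Mx2, Gbp2 and Gbp3, and Trim30a, and signal shared between copies cannot be told apart.

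Usp18 removes the ubiquitin-like protein ISG15 from its targets and also restrains signaling at the type I receptor. It measured 6.75 and 9.03 in untreated and 8.68 and 9.22 in irradiated miR-21+/+ tumors, and 7.99 and 7.99 in untreated and 7.20 and 7.42 in irradiated miR-21-/- tumors. Both irradiated miR-21-/- arrays lay more than 1 log2 unit below both irradiated miR-21+/+ arrays, and all 13 probe sets were lower. The log2 fold change was -1.64 ± 0.62 (SE, 3.12-fold lower, adjusted p = 0.311). Isg15 itself had -0.79 ± 0.53, and Herc6, the mouse ligase that attaches ISG15, had -0.58 ± 0.57, both nearer 0 without irradiated miR-21-/- replicate 1 (-0.16 and -0.26). The radiation difference of Usp18 in miR-21+/+ tumors was 1.06 ± 0.62 (SE, adjusted p = 0.715), and -0.08 without untreated replicate 1.

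Rsad2, which encodes viperin, an enzyme that makes a chain-terminating ribonucleotide, had the largest genotype difference in irradiated tumors. It measured 6.83 and 8.82 in untreated and 7.74 and 8.09 in irradiated miR-21+/+ tumors, and 6.99 and 7.27 in untreated and 6.27 and 5.71 in irradiated miR-21-/- tumors. The 2 irradiated miR-21-/- arrays were the lowest of the 8. The log2 fold change between irradiated genotypes was -1.92 ± 0.57 (SE, 3.79-fold lower, adjusted p = 0.215), and all 10 probe sets were lower. With any array left out it lay between -2.20 and -1.64, and only without irradiated miR-21+/+ replicate 2 did the unadjusted p exceed 0.05, as it also did with the median of the probe sets (-1.58) or the brightest probe set (-1.87) in place of their mean. Averaged over treatments it was -1.31 ± 0.40 (SE, adjusted p = 0.159), from -1.81 without untreated miR-21+/+ replicate 1 to -0.81 without its replicate 2, and in miR-21-/- tumors the radiation difference was -1.14 ± 0.57 (SE, adjusted p = 0.499). Cmpk2, a nucleotide kinase that lies beside Rsad2 in the genome and acts with viperin, measured 6.69 and 8.50 in untreated and 7.87 and 8.24 in irradiated miR-21+/+ tumors, and 7.82 and 7.88 in untreated and 6.86 and 6.81 in irradiated miR-21-/- tumors. The irradiated miR-21-/- arrays were close to each other and, as for Rsad2, lay below the irradiated miR-21+/+ arrays, with a log2 fold change of -1.22 ± 0.50 (SE, 2.33-fold lower, adjusted p = 0.346).

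Isg20, a nuclease that degrades viral RNA, had nearly the same genotype difference in both treatments. It measured 6.75 and 7.16 in untreated and 7.25 and 7.48 in irradiated miR-21+/+ tumors, and 6.21 and 6.12 in untreated and 6.84 and 6.28 in irradiated miR-21-/- tumors. Genotypes did not overlap within either treatment, and only irradiated miR-21-/- replicate 1 exceeded any miR-21+/+ array, the untreated replicate 1. The log2 fold change was -0.79 ± 0.24 in untreated (SE, adjusted p = 0.221) and -0.80 ± 0.24 in irradiated tumors (SE, adjusted p = 0.225). Averaged over treatments it was -0.80 ± 0.17 (SE, adjusted p = 0.0665), and it lay between -0.94 and -0.66 with any array left out. Isg20 was also the member with the smallest p for radiation averaged over genotypes, at 0.40 ± 0.17 (SE, adjusted p = 0.445). Trim30a measured 3.49 and 6.23 in untreated and 5.46 and 5.81 in irradiated miR-21+/+ tumors, and 4.01 and 3.06 in untreated and 4.77 and 4.63 in irradiated miR-21-/- tumors. It was the member furthest below in untreated miR-21-/- tumors, at -1.32 ± 0.77 (SE, adjusted p = 0.524), but this was 0.05 without untreated miR-21+/+ replicate 2. Bst2, the tetherin that holds budding virus at the cell surface, measured 6.36 and 8.06 in untreated and 8.17 and 7.97 in irradiated miR-21+/+ tumors, and 7.20 and 7.12 in untreated and 7.56 and 7.12 in irradiated miR-21-/- tumors. Its radiation difference averaged over genotypes was 0.52 ± 0.34 (SE, adjusted p = 0.621). Samd9l and Ifitm3, which blocks viral entry, differed between irradiated genotypes by -0.34 and -0.15.

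Parp12, an ADP-ribosyltransferase with antiviral activity, measured 7.33 and 8.86 in untreated and 8.34 and 8.74 in irradiated miR-21+/+ tumors, and 8.01 and 8.01 in untreated and 7.64 and 7.36 in irradiated miR-21-/- tumors. The irradiated genotypes did not overlap, with a log2 fold change of -1.04 ± 0.44 (SE, 2.06-fold lower, adjusted p = 0.36), and all 14 probe sets were lower. The remaining members of this family, Parp9 and its partner ligase Dtx3l and Parp14, had differences between -0.51 and -0.30. In untreated tumors all 4 lay between -0.08 and 0.15.

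Both chemokines of the set attract activated T cells. Cxcl9 measured 5.54 and 5.83 in untreated and 4.75 and 6.13 in irradiated miR-21+/+ tumors, and 5.07 and 5.17 in untreated and 7.44 and 5.08 in irradiated miR-21-/- tumors. The value of 7.44 belonged to the array with the adipocyte signal. With it the genotype difference in irradiated tumors was 0.82 ± 0.73 (SE, adjusted p = 0.653), without it -0.36, and with it as the only array of its group 2.0. The radiation difference of Cxcl9 in miR-21-/- tumors was 1.14 ± 0.73 (SE, adjusted p = 0.586), or -0.04 without that array and 2.32 without replicate 2. Cxcl10, which binds the same receptor, was dim, with 4.36 and 4.98, then 4.39 and 4.68 in miR-21+/+ tumors and 4.22 and 3.81, then 4.12 and 4.19 in miR-21-/- tumors. All 4 miR-21-/- arrays were below all 4 miR-21+/+ arrays, with an averaged log2 fold change of -0.52 ± 0.18 (SE, adjusted p = 0.199).

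The 4 GTPases of the IFN-gamma response take part in defense against intracellular pathogens. All 4 were lower in irradiated miR-21-/- tumors, at -0.62 for Gbp2, -0.89 for Irgm1, -1.05 for Igtp and -1.11 for Gbp3. Between untreated genotypes the same 4 lay between -0.03 and 0.05. Irgm1 had the smallest p of these, with -0.89 ± 0.37 (SE, adjusted p = 0.349). Without irradiated miR-21-/- replicate 1 the difference was -0.46 for Irgm1 and -1.18 for Gbp2. Gbp2 was the exception in its arrays, with 8.04 in irradiated miR-21-/- replicate 1 and 6.92 in replicate 2 against 7.62 and 8.59 in irradiated miR-21+/+ tumors.

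Ifi44, an interferon-induced gene with reported antiviral activity, was among the brightest members. It measured 7.32 and 9.77 in untreated and 9.25 and 10.13 in irradiated miR-21+/+ tumors, and 9.49 and 9.53 in untreated and 7.64 and 8.82 in irradiated miR-21-/- tumors. The radiation difference was 1.14 ± 0.75 (SE, adjusted p = 0.76) in miR-21+/+ and -1.28 ± 0.75 (SE, adjusted p = 0.555) in miR-21-/- tumors. The first was -0.09 without untreated miR-21+/+ replicate 1, and the second was -0.69 without irradiated miR-21-/- replicate 1. The interaction of -2.42 ± 1.06 (SE, adjusted p = 0.629) was the most negative of the set, and it was -1.20 without untreated miR-21+/+ replicate 1. The genotype difference of Ifi44 was 0.96 ± 0.75 in untreated tumors (adjusted p = 0.655) and -1.46 ± 0.75 in irradiated tumors (adjusted p = 0.436), and without the same arrays these were -0.26 and -0.87. Sp100, a component of PML nuclear bodies, and Xaf1, which promotes apoptosis, had positive genotype differences. Sp100 measured 6.78 and 8.30 in untreated and 6.45 and 7.37 in irradiated miR-21+/+ tumors, and 8.12 and 8.22 in untreated and 7.54 and 8.01 in irradiated miR-21-/- tumors. It was higher in irradiated miR-21-/- tumors by 0.86 ± 0.50 (SE, adjusted p = 0.48) with no overlap, and 28 of its 29 probe sets were higher. Xaf1 measured 8.04 and 9.97 in untreated and 8.13 and 8.45 in irradiated miR-21+/+ tumors, and 9.20 and 9.14 in untreated and 8.59 and 8.97 in irradiated miR-21-/- tumors. It was higher by 0.49 ± 0.54 (SE, adjusted p = 0.718), also with no overlap, but 4 of its 8 probe sets were higher and 4 lower. In miR-21+/+ tumors the radiation differences of these 2 genes were negative, -0.63 ± 0.50 for Sp100 and -0.71 ± 0.54 for Xaf1.

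Among the genes upstream of the set few were called. Of 14 measured interferon ligands none was called in any of the 7 comparisons, and the list was dim, with Ifnb1, the interferon-beta gene, between 2.94 and 3.76 in all arrays and Ifng, which encodes IFN-gamma, between 2.65 and 3.19. Ifnb1 in the untreated miR-21+/+ pair measured 2.94 and 3.17. The 5 measured receptor genes were bright and none was called. Ifnar1 measured 8.00 and 8.29 in untreated miR-21+/+ tumors and Ifnar2 8.18 and 8.50, and the list had a median gap of 0.10 in that pair. The IFN-gamma receptor genes Ifngr1 and Ifngr2 lay between 7.79 and 8.98 and between 7.73 and 8.52 over the 8 arrays. Among the receptor kinases and STATs, Jak1, Jak2, Tyk2 and Stat3 were measured, with a median gap of 0.19 and none called. Of 13 sensing adaptors and kinases, Tlr3, the endosomal receptor of double-stranded RNA, was called between irradiated genotypes (2.63% of all genes were called lower). It measured 8.68 and 9.11 in irradiated miR-21+/+ and 6.47 and 7.55 in irradiated miR-21-/- tumors, a log2 fold change of -1.88 (adjusted p = 0.0858). The lower of these irradiated miR-21-/- values belonged to the array with the adipocyte signal. In this list 1 gene was also called lower in the interaction (-1.38, 2.25% of all genes) and in the averaged genotype difference (-1.19, 1.47%). Irf3, a transcription factor activated by nucleic acid sensing, and Mavs, the adaptor of the RNA sensors, lay between 6.76 and 7.27 and between 6.88 and 7.58. Tmem173, the adaptor STING, measured 8.84 and 8.98 in untreated and 8.18 and 8.06 in irradiated miR-21+/+ tumors, and 8.19 and 8.16 in untreated and 6.54 and 7.82 in irradiated miR-21-/- tumors, lowest in the array with the adipocyte signal. Of 8 inhibitors, Trim24, a repressor of interferon signaling in mouse liver, measured 7.53, 7.89, 7.99 and 7.94 in miR-21+/+ and 7.27, 7.41, 6.96 and 6.97 in miR-21-/- arrays. All 4 miR-21-/- arrays were lower, and its averaged genotype difference of -0.69 (adjusted p = 0.043) was the only adjusted p under 0.05 in these pathway lists. Of the 43 further interferon-stimulated genes, 33 were lower in irradiated miR-21-/- tumors (50.4% of all genes), with a median of -0.35. The median was -0.39 without irradiated miR-21-/- replicate 1. In this comparison 2 were called lower, Ifi47 (-1.02) and Slfn9 (-1.35), against 2.63% of all genes. With radiation in miR-21-/- tumors 3 of that list were called higher, Ifi204 (2.82), Gbp4 (1.61) and Nlrc5 (1.06), against 1.7% of all genes. There 1 was called lower, Slfn9 (-1.01), against 1.33%. The list median of that comparison was -0.005, and -0.026 without irradiated miR-21-/- replicate 1. Values of these single genes without that array are not given here. In untreated miR-21-/- tumors 1 was called lower, Ifi204 (-2.63), against 2.16% of all genes. With radiation in miR-21+/+ tumors 1 was called higher, Nmi (1.22), against 1.16%. In the interaction 2 were called lower, Nmi (-1.17) and Tnfsf10 (-1.04), against 2.25%. For the averaged genotype difference 1 was called lower, against 1.47%, and for the averaged radiation difference 2 were called higher, against 0.587%.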

How the data were processed

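RNA from 8 tumors was hybridised to Affymetrix Mouse Gene 2.0 ST arrays. The authors normalized exon-level probe sets by RMA and deposited them on the log2 scale. Expression Console 1.4 and Transcriptome Analysis Console 3.1 are named per the labels, and the genome build behind the probe annotation is not given in the sources used here. Of 269751 probe sets, 233753 carried a single gene symbol and were averaged per gene into 23152 genes. Probe sets with several symbols (5139) or none (30859) were left out, among them 6 that name a member with another gene. No filter on low values was applied. Precision is limited by the array number, and the symbols can be old.

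Groups were taken from the labels. limma 3.58.1 in R 4.3.3 fitted a mean per group over all 8 arrays, with 4 residual degrees of freedom and empirical Bayes moderation, and p-values were adjusted by Benjamini-Hochberg over all genes. All p-values are two-sided. The step was tested on simulated data. Python 3.11.15 was used for the tables. The members and gene lists were chosen with earlier results of these data known. By rule, array values were given for members past a threshold in a pairwise comparison without overlap, the 3 highest and 3 lowest members of each such comparison, and the 3 with the smallest p in the interaction and each averaged effect. For other lists the rule named fixed interferon receptor and sensing genes and the called gene with the smallest p. Other genes named singly were added after their values were seen. Alternatives were other variance models, normalizations, probe set summaries, array weights, a level filter, a replicate block and leaving out each array.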

Additional observations from a re-analysis of the deposited data

Results flagged for a closer look

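The interaction of radiation and genotype for Ddx58, the RNA sensor RIG-I, passed an unadjusted p of 0.05 but not the adjustment over all genes. On the log2 scale, miR-21+/+ tumors had a radiation difference of 0.62 and miR-21-/- tumors of -0.73, and the interaction was -1.35 (limma, adjusted p = 0.604 over all genes). It lay between -1.96 and -0.75 with any array left out. It passed the same unadjusted threshold in 2 of those 8 fits, without untreated miR-21+/+ replicate 2 and without irradiated miR-21-/- replicate 2, and it did not pass with quantile normalization, with the median of the probe sets or with variances not moderated. Groups of 2 arrays were too small for a test of single outlying arrays.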

How the results depend on the processing

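Limits come first from the number of arrays, 2 per group, and from 2 pairs whose arrays differ, untreated miR-21+/+ in this gene set and irradiated miR-21-/- in tissue markers. Under the settings that kept all arrays, no median over the members moved by more than 0.54 on the log2 scale. That is the pooled standard deviation of the array medians within groups. It is wider than several of the medians themselves, so a median that vanished or changed sign could have stayed within it. With single arrays left out, the medians ranged from -0.91 to -0.47 for the irradiated and -0.68 to 0.80 for the untreated genotype difference, -0.39 to 1.23 for radiation in miR-21+/+ and -0.50 to -0.20 in miR-21-/-, -1.49 to 0.015 for the interaction, -0.66 to 0.04 for the averaged genotype and -0.40 to 0.36 for the averaged radiation difference. The numbers of members called in the same order ranged from 0 to 12, 0 to 16, 0 to 26, 0 to 5, 0 to 31, 1 to 6 and 0 to 3, and those at an adjusted p under 0.05 from 0 to 4, 0 to 0, 0 to 0, 0 to 2, 0 to 1, 0 to 1 and 0 to 1.

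With all arrays kept, the 4 called between irradiated genotypes became 8 with limma on the arrays of the comparison alone, 2 with a variance trend and robust prior, 1 with quantile normalization and 1 with array weights. Between untreated genotypes 1 was called with the median of the probe sets and 2 with the brightest probe set. For radiation in miR-21+/+ the count was 0 with variances not moderated, with quantile normalization and with the median of the probe sets, and in miR-21-/- it was 1 with variances not moderated and 4 with limma on the arrays of the comparison alone. For the interaction it was 0 with variances not moderated or quantile normalization and 4 with the brightest probe set, and for the averaged genotype difference 0 with variances not moderated and 2 with the median of the probe sets or the brightest probe set. With genes above the median level alone, 1 member, Isg20 (-0.80), had an adjusted p under 0.05 for the averaged genotype difference. The share of all genes called under each of these settings, or with the replicate block below, is not given here. These counts are therefore not read as results about the members. The cause of these changes was not tested.

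Over all genes, the correlations of same-numbered deviations lay between -0.133 and 0.042, so the replicate numbers showed no pairing of the arrays there. Of the 45 members, 45 in untreated and 42 in irradiated miR-21+/+ tumors were higher in replicate 2. In miR-21-/- tumors 22 untreated and 31 irradiated were higher in replicate 2. Pairing within this gene set was not tested. With the replicate block, the members called numbered 6 between irradiated genotypes, 1 for radiation in miR-21-/- and 4 for the interaction, and the other counts did not change.

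Single genes changed sign only with an array left out. Their ranges were, for the untreated genotype difference, -0.26 to 2.19 for Ifi44, -0.26 to 2.02 for Irf7, -0.14 to 2.73 for Oas2, -2.14 to 0.30 for Oas3 and -2.69 to 0.045 for Trim30a. For radiation in miR-21+/+ they were -0.086 to 2.37 for Ifi44, -0.056 to 2.35 for Ifit1, -1.41 to 0.35 for Ifit2, -1.38 to 0.13 for Sp100, -0.076 to 2.20 for Usp18 and -1.68 to 0.25 for Xaf1, each with an untreated miR-21+/+ array left out. Cxcl9 ranged from -0.36 to 2.0 between irradiated genotypes and from -0.040 to 2.32 for radiation in miR-21-/-.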
